A study of Saccharomyces cerevisiae with 2 samples.

Results

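The aryl-alcohol dehydrogenase family of budding yeast was taken as 7 open reading frames (ORFs) chosen by name, out of 6207 ORFs in the deposited table. They were the genes AAD3 (YCR107W), AAD4 (YDL243C), AAD6 (YFL056C), AAD10 (YJR155W), AAD14 (YNL331C) and AAD15 (YOL165C), together with YPL088W, a putative aryl-alcohol dehydrogenase gene that has no standard name and lies beside RLM1. YPL088W was included with its ratio in these arrays known, so its difference from the AAD genes is a description and carries no test. All 7 had a value on both arrays.

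Aryl-alcohol dehydrogenases are NADPH-dependent enzymes of the aldo-keto reductase superfamily that convert aromatic aldehydes to the corresponding alcohols. The yeast AAD genes are named for their similarity to an enzyme of the lignin-degrading fungus Phanerochaete chrysosporium, and several lie near chromosome ends. Some of them are known to respond to oxidants through the transcription factor Yap1, while YPL088W is known as a target of Yrr1 and Yrm1, zinc-finger factors of multidrug resistance. RLM1 encodes the MADS-box transcription factor that the cell wall integrity kinase Slt2 activates.

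Transcript ratios came from 2 two-colour arrays, each with RNA of Zymolyase-treated cells set against RNA of untreated cells. Zymolyase is a mixture of lytic enzymes that breaks down wall glucan, and treated cultures received 0.8 units per ml for 3 hours at 24 °C in rich YEPD medium. Treated and untreated cells alike carried a sho1 mutation in the haploid BY4741 background, so no wild-type cells enter the comparison. Treated RNA was labelled with Cy3 on array 1 and with Cy5 on array 2, and untreated RNA with the other dye. SHO1 itself had no value on either array. For the untreated channel of array 2 a free-text comment says hog1 where the genotype field says sho1, and HOG1 had log2 ratios of -0.20 on array 1 and 0.04 on array 2. Whether separate cultures or the same RNA stood behind the arrays is not stated, so SDs measure only the spread between these arrays, which may be technical. The p-values rest on the same spread, mostly as shared over all tested ORFs and only in small part as that of the single ORF.

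The deposited log2 ratios carry no stated direction. They were read as turned the same way on both arrays, because the labels describe both records as one and the same comparison, and a positive value then likely means a higher level in treated cells. Across the 5311 ORFs with both values the columns had a Pearson r of -0.01 and a Spearman rho of -0.26, which do not settle the direction. If both columns instead hold a fixed dye on top, array 1 has to be turned. Turning changes the sign of every array 1 value and leaves array 2 as it is. Values under that reading are given for the members, the counts, the lists and the genes singled out, and all other values are for the columns as deposited.

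YPL088W stood apart from the AAD genes on both arrays. Array 1 gave it a log2 ratio of 1.02 and array 2 one of 1.12, and no AAD gene was above 0.13 on either array. The mean for YPL088W was 1.07 ± 0.07 (SD, n = 2 arrays), a ratio of 2.10-fold. As deposited, both arrays placed this gene near the top of the distribution, at rank 13 on array 1 and rank 19 on array 2 among the 5311 ORFs. Turned, array 1 would put it at rank 13 from the bottom, while array 2 would keep it at rank 19 from the top. The gap between its values, 0.10 on the log2 scale, was at percentile 30.4 of absolute gaps as deposited, and would be 2.14, at percentile 99.7, with array 1 turned.

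AAD14 (YNL331C), AAD4 (YDL243C) and AAD3 (YCR107W) had small ratios on both arrays. AAD14 had -0.05 on array 1 and 0.08 on array 2. AAD4 had -0.06 on array 1 and 0.07 on array 2. Both genes thus lay on either side of 0, close to the median ORF at -0.03 on array 1 and -0.02 on array 2. AAD3 had -0.20 on array 1 and -0.09 on array 2, the only AAD gene of the 6 below 0 on both arrays, with a mean of -0.14 ± 0.08 (SD, n = 2).

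AAD6 (YFL056C), AAD10 (YJR155W) and AAD15 (YOL165C) gave a different picture on each array. The dyes were swapped between the arrays, so a difference between arrays cannot be told apart from an effect of the dye. AAD10 had -0.42 on array 1, lower than all but 1.56% of ORFs, and 0.11 on array 2. AAD6 had -0.38 on array 1 and 0.13 on array 2. AAD15 had -0.35 on array 1 and 0.08 on array 2. These 3 genes were low on array 1 and slightly above 0 on array 2, so that their means of -0.15 ± 0.37, -0.12 ± 0.36 and -0.13 ± 0.30, in the order AAD10, AAD6, AAD15, are smaller than the spread between arrays (SD, n = 2). For comparison, the median SD between arrays over all ORFs was 0.12.

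**Figure D1:**
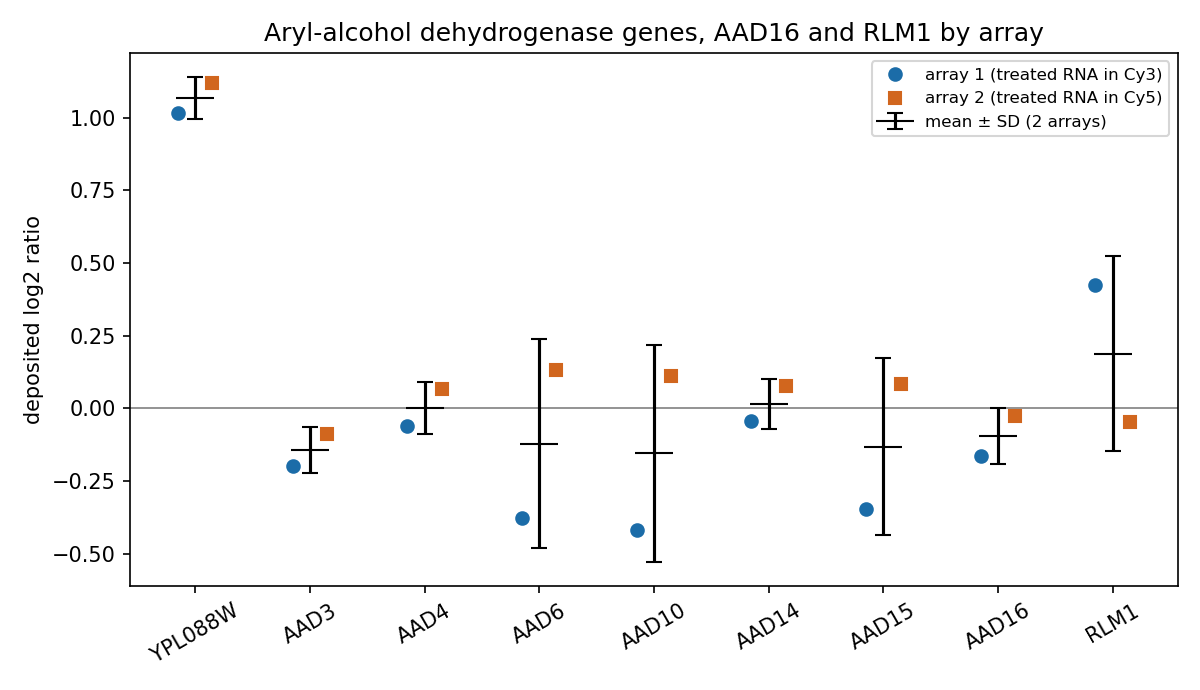
Deposited log2 ratio (vertical axis) of the family members, of AAD16 and of RLM1. Circles are array 1, squares array 2, and bars the mean ± SD of the 2 arrays. YPL088W lies at 1.02 and 1.12, while AAD genes lie between -0.42 and 0.13.

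AAD16, a further AAD gene outside the chosen 7, had -0.16 on array 1 and -0.03 on array 2. In the R64 annotation its ORF name YFL057C is a synonym of AAD6, and the joined locus is listed as a pseudogene. The array carries both ORFs as separate features, and AAD6 was lower than AAD16 on array 1 and higher on array 2. Annotated lengths also differ within the family, at 432 bp for AAD15 and 867 bp for AAD10, against 990 bp for AAD4, 1092 bp for AAD3 and 1131 bp for AAD14. YPL088W has 1029 bp. AAD genes share much of their sequence, so the ratio at an AAD spot can contain signal from other AAD transcripts, and values of single AAD genes are uncertain for that reason. The spot sequences were not used here.

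In the order of their means as deposited the 6 AAD genes ran from -0.15 for AAD10 to 0.02 for AAD14. AAD10, AAD3, AAD15 and AAD6 followed each other by less than their SDs between arrays, as did AAD4 at 0.002 ± 0.09 and AAD14 at 0.02 ± 0.09 (SD, n = 2 each). The step from AAD6 to AAD4 was smaller than the SD of AAD6 and larger than that of AAD4. The order depends on the reading, since with array 1 turned AAD10 is the highest at 0.26 and AAD3 the lowest at 0.06. YPL088W exceeded the median AAD gene by 1.29 on array 1 and by 1.04 on array 2, a mean difference of 1.17 ± 0.18 on the log2 scale (SD, n = 2 arrays). It exceeded the highest AAD gene on each array by 1.06 and 0.99.

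The median log2 ratio of the 6 AAD genes was -0.27 on array 1 and 0.08 on array 2. All 6 were below 0 on array 1, and 5 of the 6 were above 0 on array 2. Over all ORFs, 30.1% were below 0 on array 1 and above 0 on array 2, and 29.2% had the reverse signs. With array 1 turned, those 5 genes are above 0 on both arrays, AAD10 has a mean of 0.26 ± 0.22, AAD6 0.26 ± 0.17 and AAD15 0.22 ± 0.19 (SD, n = 2 each). AAD4 then has 0.06 ± 0.003, AAD14 0.06 ± 0.02 and AAD3 0.06 ± 0.20 (SD, n = 2 each), AAD16 outside the 7 has a mean of 0.07, and the median of the 6 is 0.14 against 0.006 for all ORFs. Under the same reading YPL088W has -1.02 on array 1 and 1.12 on array 2, a mean of 0.05 ± 1.51. Which genes of the family have like values on both arrays therefore depends on the reading.

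**Figure D2:**
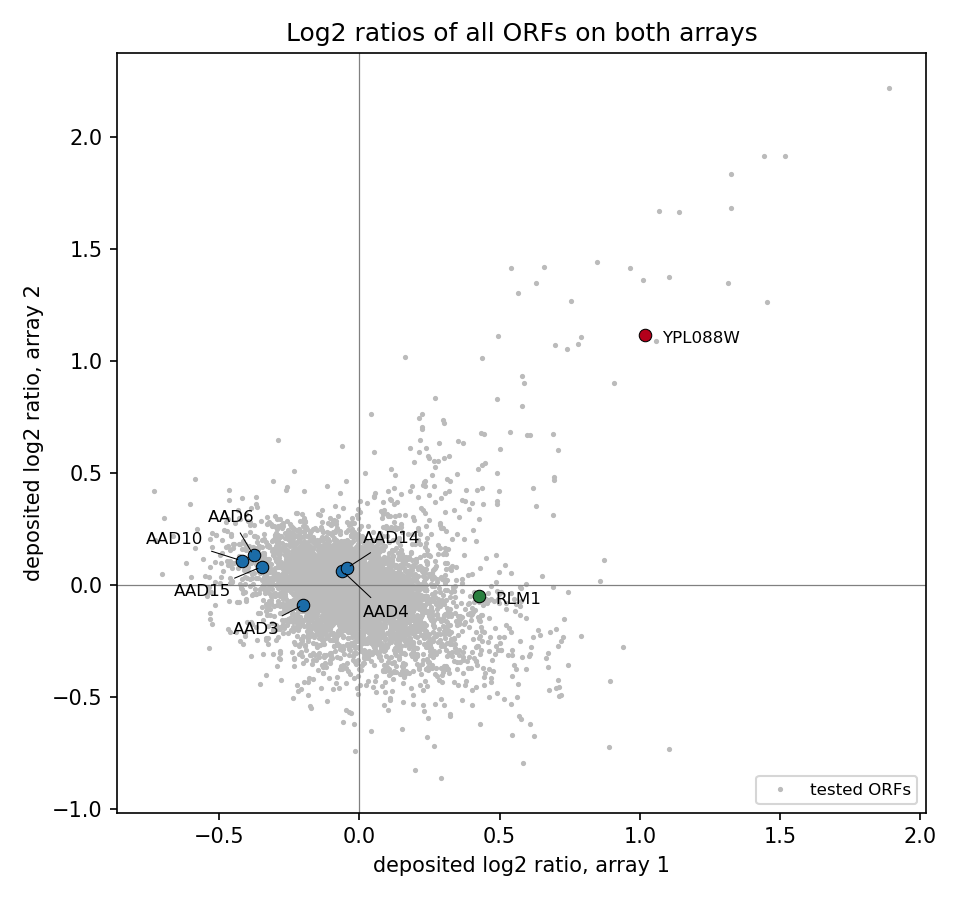
Deposited log2 ratio on array 1 (horizontal axis) and array 2 (vertical axis) for the 5311 ORFs with both values. Grey points are all ORFs, and named points are the family members and RLM1. YPL088W lies among the few ORFs that are high on both arrays, while AAD genes lie within the main cloud or at its left edge.

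In limma's moderated test of the mean ratio against 0, fitted over all 5311 ORFs with Benjamini-Hochberg adjustment and an adjusted p of 0.05 as the threshold, 1 of the 7 members passed as higher, YPL088W, and 0 passed as lower. Over all ORFs 41 passed as higher, or 0.772%, and 0 passed as lower, with 59 lower at an unadjusted p under 0.05. By size, a mean ratio of 2-fold or more with values above 0 on each array was found for 17 ORFs, or 0.32%, and 1 of the 7 members, YPL088W, was among them. Since this contrast served to choose YPL088W, these counts support nothing further about it. An unadjusted p under 0.05 in limma was found for 0 of the 6 AAD genes and for 191 of all ORFs, or 3.60%, so that a count of 0 in 6 genes is near the background. With array 1 turned, limma called 0 ORFs at adjusted p, with 499 at an unadjusted p under 0.05 and 0 of the 7 members among them.

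The ORFs whose pair of values was closest to that of YPL088W belong to several functions. Closeness was measured as the Euclidean distance between log2 ratios on the 2 arrays. CRG1, a methyltransferase gene, was the nearest at 1.06 on array 1 and 1.09 on array 2, a distance of 0.05, and was the 1 ORF within a distance of 0.1. MRD1, an rRNA processing factor, had 0.79 on array 1 and 1.11 on array 2. CWP1, a cell wall mannoprotein gene, had 0.78 on array 1 and 1.08 on array 2. PPR1, the activator of pyrimidine synthesis genes, had 0.91 and 0.90, and GEM1, a mitochondrial outer membrane GTPase, had 1.01 and 1.37, array 1 first in both cases. Within the same distance AAD4 had 919 ORFs, AAD14 had 852 ORFs and AAD10 had 98 ORFs.

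RLM1 is the annotated neighbour of YPL088W on one side. Their systematic names place them on opposite strands, and in R64 gene order they are transcribed away from each other with no annotated gene between them. RLM1 had a log2 ratio of 0.43 on array 1 and -0.05 on array 2, with a mean of 0.19 ± 0.33 (SD, n = 2). It was thus high on array 1 alone, at percentile 96.6, and close to the middle on array 2, at percentile 42.4, where YPL088W had 1.12. On the other side YDC1, an alkaline ceramidase gene, had -0.14 on array 1 and 0.08 on array 2. Neither neighbour passed the test. In the turned reading RLM1 has a mean of -0.24 ± 0.27 and YDC1 0.11 ± 0.04 (SD, n = 2 each).

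The AAD genes lie elsewhere in the genome. In R64 gene order AAD3 and AAD15 are at place 2 from a chromosome end, AAD4 and AAD10 at place 6, AAD14 at place 7 and AAD6 at place 11, while YPL088W is at place 201. A feature shared by 4 of the 6, noted after the values were seen, is a neighbour from the THI5 family, whose members encode an enzyme of thiamine precursor synthesis. THI5 beside AAD6 had -0.34 on array 1 and 0.23 on array 2, where AAD6 had -0.38 and 0.13. THI12 beside AAD14 had -0.41 on array 1 and 0.16 on array 2, where AAD14 had only -0.05 and 0.08. THI13 beside AAD4 had 0.15 on array 1 and -0.04 on array 2. THI11 beside AAD10 had no value on array 1 and 0.06 on array 2. The low array 1 and positive array 2 values thus occurred at THI5 and THI12, but not at THI13. THI5 and THI12 both have a mean of 0.28 with array 1 turned, and THI13 has -0.09. THI5 family genes are near-identical in sequence, so each of these spots may also report on its copies.

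The other measured nearest neighbours were RDS1, a zinc-cluster factor gene beside AAD3, at -0.37 on array 1 and 0.09 on array 2, and RPD3, a histone deacetylase gene beside AAD14, at 0.25 and -0.07. Of the 14 nearest neighbours of the 7 members, 7 had both values, 1 had a value on array 2 alone and 6 had none. The means of those 7 ran from -0.14 to 0.19 and 0 passed limma's test, which is near the background of 0.772% of ORFs. Their means with array 1 turned ran from -0.24 to 0.28, 0 passed and 2 had an unadjusted p under 0.05, THI5 and THI12, against 9.40% of all ORFs.

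**Figure D3:**
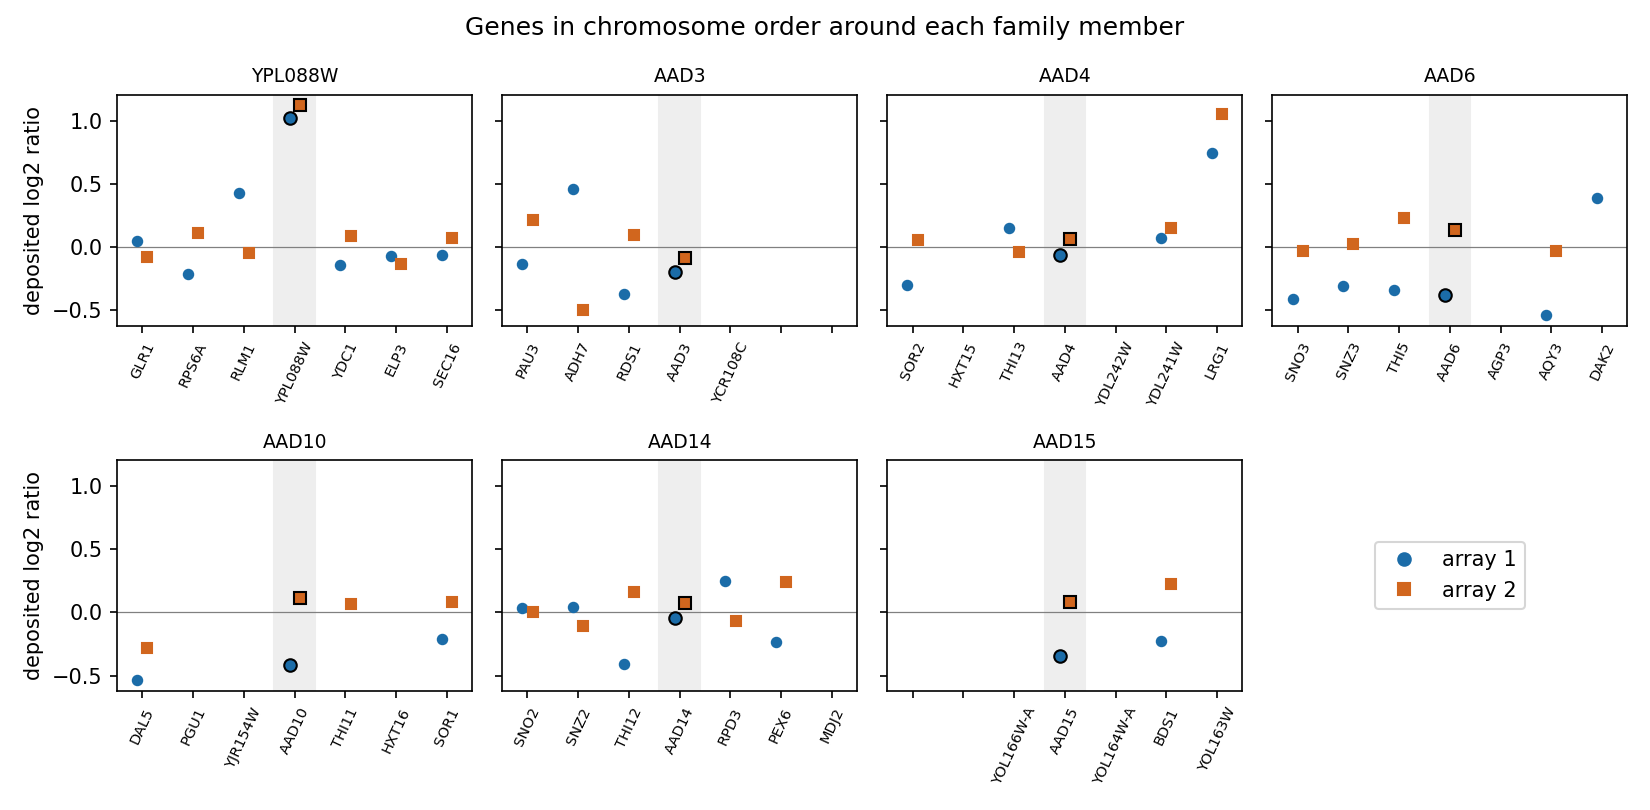
Deposited log2 ratio (vertical axis) of up to 3 annotated genes on each side of every family member, in R64 gene order (horizontal axis). Circles are array 1, squares array 2, the shaded column is the member, and a missing marker means no value. YPL088W at 1.02 and 1.12 lies above its neighbours, of which RLM1 is high on array 1 only.

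None of the listed genes of related chemistry passed the test, although single values of genes with both values reached -0.50. CCP1, listed as a Yap1 target, had -0.69 on array 1 and no value on array 2, so it was not among the tested ORFs. The aromatic alcohol (Ehrlich) pathway turns aromatic amino acids into fusel alcohols through transamination, decarboxylation and reduction of the aldehyde. Of its 16 listed genes, 0 passed as higher and 0 as lower, and their median log2 ratio was -0.05, beside -0.03 over all tested ORFs. The turned reading gave a median of -0.04, beside 0.006 over all ORFs. ARO9, the aromatic aminotransferase gene induced by aromatic amino acids, had -0.23 on array 1 and 0.03 on array 2. ARO10, the decarboxylase gene, had -0.07 and -0.02, and their activator ARO80 had 0.02 and 0.003. ARO9, ARO10 and ARO80 were therefore close to the median ORF on array 2. This did not hold for the whole list. ADH3 and ADH7, given below, lay further from the median ORF on array 2, as did ADH5 at -0.43 and PDC5 at -0.22.

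Among the alcohol dehydrogenases of this list, ADH6, an NADPH-dependent enzyme that reduces aromatic aldehydes such as cinnamaldehyde, had 0.34 on array 1 and 0.08 on array 2. ADH3, the mitochondrial enzyme, had -0.19 and -0.29. ADH2, the glucose-repressed enzyme, had -0.10 and -0.17, and ADH4 had -0.24 and -0.08. ADH6, ADH3, ADH2 and ADH4 were named for having the same sign on both arrays, so their agreement is no result. None of them passed. Of the 16 genes on the list, 8 had opposite signs on the arrays as deposited. ADH7, a close relative of ADH6 that lies 2 places from AAD3, had 0.46 on array 1 and -0.50 on array 2 and was singled out after its values were seen. Its gap between arrays, 0.96, was at percentile 99.3 of ORFs as deposited. Turned, the values of ADH7 are -0.46 and -0.50, a gap of 0.04 at percentile 15.8, with an unadjusted p under 0.05 and no adjusted call. In that reading ADH6, ADH3, ADH2 and ADH4 have opposite signs on the arrays, which follows from how they were chosen.

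Other aldo-keto reductases likewise had 0 members called. Of 7 listed, 6 had both values, with a median of -0.003 and means between -0.09 and 0.04. Turning array 1 gave a median of 0.08, and the means lay between -0.38 and 0.13. GRE3, an aldose reductase gene, had -0.16 on array 1 and -0.03 on array 2. GCY1, a glycerol dehydrogenase gene, had -0.12 and 0.14, and YPR1, an aldehyde reductase gene, had -0.12 and 0.09. GCY1, YPR1 and YJR096W, 3 of the 6, were below 0 on array 1 and above 0 on array 2, as were most AAD genes. Over all ORFs this pattern had a share of 30.1%. ARA1, at 0.07 on array 1 and -0.005 on array 2, had the reverse signs. So did YPR127W, at 0.42 on array 1 and -0.34 on array 2, which was singled out after its values were seen. Its mean with array 1 turned is -0.38 ± 0.05 (SD, n = 2).

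Yap1 and its oxidative stress targets were also without a call. Of 20 listed genes, 17 had both values, with a median of -0.05, 8 below 0 on both arrays and 1 above 0 on both. Their median with array 1 turned was 0.02, with 5 below 0 on both arrays and 3 above 0 on both. SNQ2, a drug efflux pump gene, had -0.15 on array 1 and -0.12 on array 2. TRR1, thioredoxin reductase, had -0.07 and -0.21, FLR1, a drug efflux transporter gene, had -0.04 and -0.14, and YML131W, an oxidoreductase gene, had 0.04 and 0.18. Over the 3 lists together, 0 of 39 tested genes passed limma's test and 0 had an unadjusted p under 0.05, against 0.772% and 3.60% of all ORFs. Counts of 0 in so few genes are near that background and are no result about the lists. In the turned reading 0 of the 39 passed and 3 had an unadjusted p under 0.05, or 7.69%, against 9.40% of all ORFs. These were ADH7, YPR127W and GTT2, a glutathione transferase gene.

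**Figure D4:**
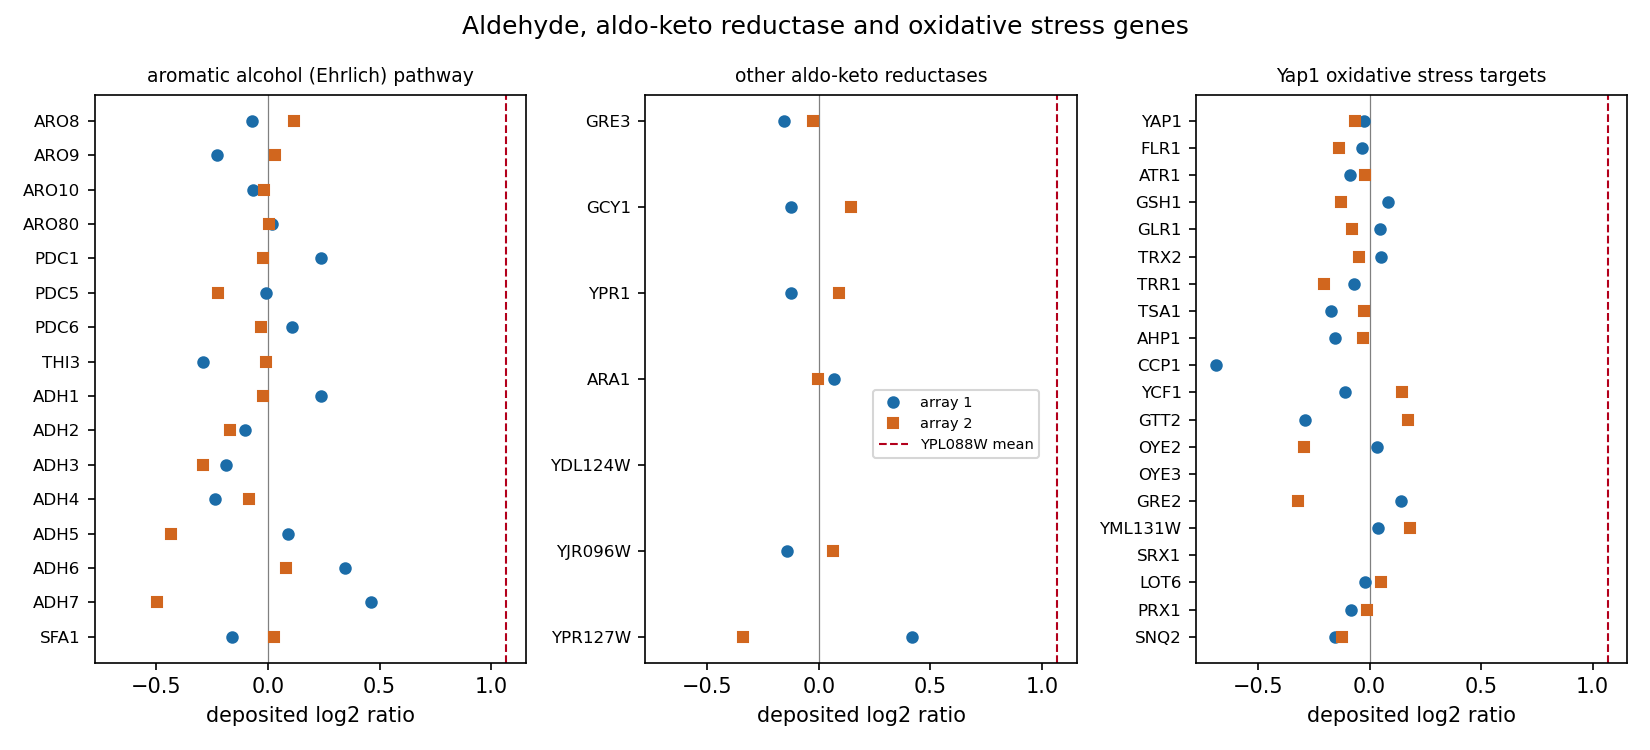
Deposited log2 ratio (horizontal axis) of the genes of 3 lists, with circles for array 1 and squares for array 2. The dashed line is the mean of YPL088W at 1.07, and every plotted gene lies to its left on both arrays as deposited.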

How the data were processed

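The deposited values are log2 ratios for each ORF on each array. The base was found from the values: raised as powers of 2, 100% of them on both arrays were multiples of 0.0001 (tolerance 1% of the step). Background correction, normalization, direction and the rule behind missing values are not stated in the labels or the table. No spot intensities were used, so the number of arrays sets the precision. Without 2 control rows, array 1 had values for 5552 ORFs and array 2 for 5347. Of 6207 ORF names, 5654 matched locus tags of the R64 annotation, which served for names, lengths and gene order only, as no build is named for the array.

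Mean ratios of the 5311 ORFs with both values were tested against 0, two-sided, by lmFit and eBayes of limma 3.58.1 (R 4.3.3), with Benjamini-Hochberg adjustment over all of them. Each ORF had 1 residual and 23.5 prior degrees of freedom, and a dye term would have left no residual degree of freedom. The fit was tested on simulated data with independent arrays and no dye effect. That setting has no bearing on the direction of the columns. Members and lists were chosen with earlier results of these data known. Named genes were the members, AAD16, nearest annotated neighbours, the 5 ORFs closest to YPL088W, and up to 4 list genes by the smaller absolute value among those with the same sign on both arrays. ARO9, ARO10, ARO80, PDC5, ADH5, ADH7, ARA1, GCY1, YPR1, YJR096W, YPR127W, GTT2 and CCP1 are named beyond that rule. The genes of the closing section are as well. The planned promoter motif search was not run, as no sequence was used here. Alternatives were the turned array, centring, scaling, robust variances, ORFs with 1 value, another threshold and single arrays. Tables and plots used Python 3.11.15, pandas 2.3.3 and matplotlib 3.10.9.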

Additional observations from a re-analysis of the deposited data

How the results depend on the processing

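The reading of the columns decided the results. With array 1 turned, 0 family members and 0 ORFs passed, YPL088W had a mean of 0.0503, the AAD median was 0.14, YPL088W minus the AAD median was -0.13 and RLM1 was -0.24. AAD3, AAD6, AAD10 and AAD15 also moved by more than their spread, because turning changes the sign of their array 1 values. Under centring, scaling, robust variances, inclusion of ORFs with 1 value and an adjusted p of 0.1, YPL088W was the 1 member called, listed pathway genes stayed at 0, and calls over all ORFs ran from 40 to 54, against 41. Single arrays gave YPL088W 1.02 to 1.12 and its difference from the AAD median 1.04 to 1.29, both without a test. The AAD median, -0.13 over both arrays, was 0.08 without array 1 and -0.27 without array 2. Treated and untreated RNA were already paired within each array, and with 1 group of arrays no further paired analysis was possible.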

Other observations

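Factors of multidrug resistance known to act on YPL088W, and other genes known as Yrr1 targets, formed a list added later. Of 9 genes 7 had both values, 0 passed limma's test, and the median log2 ratio was -0.09. YRR1 had -0.18 on array 1 and -0.22 on array 2, YRM1 had -0.07 and -0.17, and SNG1, a membrane protein gene, had -0.40 and 0.32. YPL088W, at 1.02 and 1.12, was above each measured gene of this list on both arrays as deposited. The list's median with array 1 turned was -0.02, and YPL088W would be at -1.02 on array 1. YOR1, a drug efflux pump gene, had no value on array 1 and -0.69 on array 2.

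The SNZ and SNO genes of vitamin B6 synthesis were also added later, as a list of 6. Of these, 5 had both values, with a median of -0.12, and 0 passed, against 0.772% of all ORFs. SNZ3, SNO3, SNZ2 and SNO2 lie next to the THI5 family copies beside AAD6 and AAD14, while SNZ1 and SNO1 lie elsewhere. SNZ1 had -0.16 on array 1 and -0.07 on array 2, and SNO1 had -0.24 on array 1 and no value on array 2. SNO3 had -0.41 on array 1 and -0.03 on array 2, and SNZ3 had -0.31 and 0.03, on the side of AAD6. SNO2 had 0.03 and 0.001, and SNZ2 had 0.04 and -0.11, on the side of AAD14. On array 1, AAD6 was at -0.38 and AAD14 at -0.05. Other genes nearby were mixed. THI12, between SNZ2 and AAD14, had -0.41 on array 1, unlike both of them. On the side of AAD6, THI5 had -0.34 on array 1. AQY3, which lies 2 places from AAD6, had -0.54 on array 1 and -0.03 on array 2. DAK2, which lies 3 places from AAD6, had 0.39 on array 1 and no value on array 2. Turning array 1 gives SNO3 a mean of 0.19, SNZ3 0.17, SNO2 -0.02, SNZ2 -0.07 and SNZ1, then the median of the list, 0.05.

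Other ORFs near chromosome ends were described later, as a group defined by gene order. The 230 such ORFs within 11 places of an end had a median log2 ratio of -0.03 on array 1 and 0.02 on array 2, and 35.7% of them were below 0 on array 1 and above 0 on array 2. Their median of means with array 1 turned was 0.03. Of these ORFs 2 passed limma's test as higher, or 0.870%, near the 0.772% of all ORFs. They were LRG1, which lies 3 places from AAD4, with 0.74 on array 1 and 1.05 on array 2, and YAT1, a carnitine acetyltransferase gene, with 0.70 and 1.07.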
